A study of Mus musculus with 38 samples.

Results

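The genes described are isoforms of glycolysis enzymes, chosen by name from the steps at which mammals use more than 1 gene: Hk1 and Hk2, Pfkp, Aldoa and Aldoc, Pgk1, Eno1 and Eno2, and Ldha and Ldhb. A probe set named for the gene was found for 6 of these 10, Hk1, Pfkp, Aldoa, Aldoc, Eno2 and Ldhb, among 15644 genes with a named probe set, and each of the 6 passed the filter on low signal that left 9799 genes to test. Hk2, Pgk1, Eno1 and Ldha are not analysed here. The pairs Hk1 and Hk2, Eno1 and Eno2, and Ldha and Ldhb therefore have a value on 1 side only, and Aldoa and Aldoc are the only pair of listed isoforms measured on both sides.

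Glycolysis splits glucose into pyruvate in the cytosol. Hexokinase traps glucose as glucose 6-phosphate, phosphofructokinase commits the sugar to the pathway, aldolase cleaves it, enolase makes phosphoenolpyruvate near the end, and lactate dehydrogenase interconverts pyruvate and lactate. In brain the isoforms are known to divide between cell types: aldolase C (Aldoc, also called zebrin II) is a classical marker of forebrain astrocytes, aldolase A is the widespread form, and gamma enolase (Eno2) is the neuron-specific enolase. Tumours are known to often run high glycolysis with other isoforms, and the comparisons below ask which isoform RNA each cortical cell type and each glioma model carried.

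The RNA came from translating ribosome affinity purification, in which ribosomes carrying a tag in 1 cell population are pulled down with the RNA bound to them, or was total RNA of the tissue. There were 38 arrays in 12 groups. Bound RNA of adult mouse cortex was taken from lines titled Snap25 (neurons), Aldh1L1 (astrocytes), Cnp1 (mature oligodendrocytes), Pdgfra (oligodendrocyte progenitors) and Olig2 (oligodendroglia, here cortical Olig2 cells), with 3 arrays each. Cortex total RNA had 5 arrays. The tumours were 3 variations of a mouse glioma model, which the labels name Pdgf, Pdgf Cre and Recruited, with 3 arrays of RNA bound in Olig2 cells and 3 of total RNA for each. All animals were a mixture of C57BL/6J, FVB and Swiss-Webster strains; the labels give cortex mice as wild type and tumour mice as induced, and no age beyond adult, agent or further allele is given in the sources used here. Each cortical sample pooled at least 2 mice, and no pooling is stated for the tumours. The tag follows the promoter of each line, so Olig2 cells of tumour and cortex are whatever cells carried that tag.

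Levels are log2 array signals after quantile normalization over all 38 arrays, and differences are on the same log2 scale. A probe set at or below 5.644, the log2 of a signal of 50, is called dim. A gene rises or falls in this account where limma's test gave a Benjamini-Hochberg adjusted p under 0.05 over the 9799 genes and a difference of at least 2-fold. All p-values in this account are limma's adjusted p, with 1 spread per gene over the 12 groups. The labels do not say that replicates came from separate animals, so these values measure the spread between arrays. Signals of different probe sets cannot be set against each other as amounts, since probes differ in affinity.

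The sums of astrocyte, mature oligodendrocyte and progenitor markers were highest in the populations their names call for, and that of neuron markers was not. The summed level of 13 measured astrocyte markers lay at 16.49 to 16.67 in astrocytes and at 11.82 to 11.97 in neurons, that of 12 mature oligodendrocyte markers at 17.85 to 17.87 in mature oligodendrocytes, and that of 10 progenitor markers at 16.48 to 16.63 in progenitors. The 13 neuron markers lay at 16.18 to 16.30 in neurons, inside the 16.08 to 16.36 of cortex total RNA, and reached 16.46 in Recruited total RNA. Marker by marker, 0 of 13 were higher and 1 lower in neurons than in cortex total RNA (28.2% of all tested genes passed). These sums are of linear signals, so the brightest markers weigh most in them, and the counts of single markers can differ. The astrocyte markers summed to 14.96 to 15.06 in mature oligodendrocytes, 13.61 to 13.79 in progenitors and 14.79 to 14.91 in cortical Olig2 cells, beside 14.21 to 14.34 in cortex total RNA. Marker by marker, 9 of 13 were lower and 1 higher than in cortex total RNA in mature oligodendrocytes (median difference -2.19), 10 lower and 1 higher in progenitors (-2.01), and 2 lower and 4 higher in cortical Olig2 cells (0.55). Neuron markers summed to 14.79 to 14.85 in mature oligodendrocytes and 14.90 to 15.08 in progenitors, and 10 and 12 of the 13 were lower than in cortex, with 0 higher. In all these populations, fewer cells of a type and less RNA per cell cannot be told apart.

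The 250 bases before the first listed start of 4 members are shown because the results on cell types and tumour models turn on these genes. They are RefSeq sequences of build GRCm38.p6, written 5′ to 3′ in the direction of the gene, and all 6 measured members matched the table. Capitals mark the core of the hypoxia response element, searched as ACGTG and GCGTG on both strands (CACGT and CACGC as read here), since hypoxia-inducible factors are known regulators of glycolysis genes.
Pfkp, chr13:6648772-6649021, minus strand: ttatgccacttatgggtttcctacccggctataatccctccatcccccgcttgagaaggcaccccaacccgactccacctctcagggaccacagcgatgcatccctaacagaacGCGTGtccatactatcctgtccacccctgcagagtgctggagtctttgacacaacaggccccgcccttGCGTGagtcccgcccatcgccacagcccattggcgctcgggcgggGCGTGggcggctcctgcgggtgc
Aldoa, chr7:126800448-126800697, minus strand: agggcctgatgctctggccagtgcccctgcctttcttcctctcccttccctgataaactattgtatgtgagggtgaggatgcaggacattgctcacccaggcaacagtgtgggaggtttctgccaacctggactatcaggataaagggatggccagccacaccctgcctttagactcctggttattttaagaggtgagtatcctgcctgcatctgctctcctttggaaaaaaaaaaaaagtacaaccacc
Aldoc, chr11:78322823-78323072, plus strand: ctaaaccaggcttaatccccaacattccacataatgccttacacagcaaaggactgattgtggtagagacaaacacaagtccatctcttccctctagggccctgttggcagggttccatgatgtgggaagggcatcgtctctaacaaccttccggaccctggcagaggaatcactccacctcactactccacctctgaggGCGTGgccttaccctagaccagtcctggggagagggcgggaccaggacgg
Eno2, chr6:124769674-124769923, minus strand: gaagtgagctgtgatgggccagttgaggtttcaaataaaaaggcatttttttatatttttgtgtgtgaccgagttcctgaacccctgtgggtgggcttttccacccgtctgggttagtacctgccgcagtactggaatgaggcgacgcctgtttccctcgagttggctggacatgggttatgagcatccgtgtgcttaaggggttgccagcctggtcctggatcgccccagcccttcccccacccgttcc
The Pfkp window held GCGTG 3 times and the Aldoc window 1 time, and the Aldoa and Eno2 windows shown held neither motif. Each of the 2 other Aldoa windows in the table held ACGTG 1 time, and these 2 windows overlap. Over all listed starts of the 6 genes, 7 of 10 windows held either motif, beside 38.6% of the 32851 mouse windows in the table (16.6% for ACGTG and 28.2% for GCGTG). Hk1 and Aldoc also have another start in the table, and the arrays do not tell which start was used. A match is a string of letters and shows no binding.

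Over the 12 groups the members differed widely in how far their level moved. The difference between the highest and lowest group mean was 5.92 for Eno2, 5.66 for Hk1, 4.05 for Aldoc, 3.80 for Pfkp, 1.85 for Ldhb and 1.35 for Aldoa, against a median of 3.55 over the genes tested. These ranges lay at percentile 5.09 of the tested genes for Aldoa, 15.1 for Ldhb, 83 for Eno2 and 80.8 for Hk1. The signals of Aldoa and Ldhb were near the top of the scale in every group, at percentiles 99 to 99.9 and 97.4 to 99.7 of the named genes, where the range that an array can show may be compressed, and the part of this in their small ranges was not tested. On the deposited scale the ranges were 7.28 for Eno2, 2.47 for Aldoa (percentile 23.4) and 2.36 for Ldhb (percentile 20.8), with a median of 3.71. Aldoa, Aldoc, Eno2 and Ldhb were above the dim limit on all 38 arrays, Pfkp on 31 and Hk1 on 12.

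**Figure D1:**
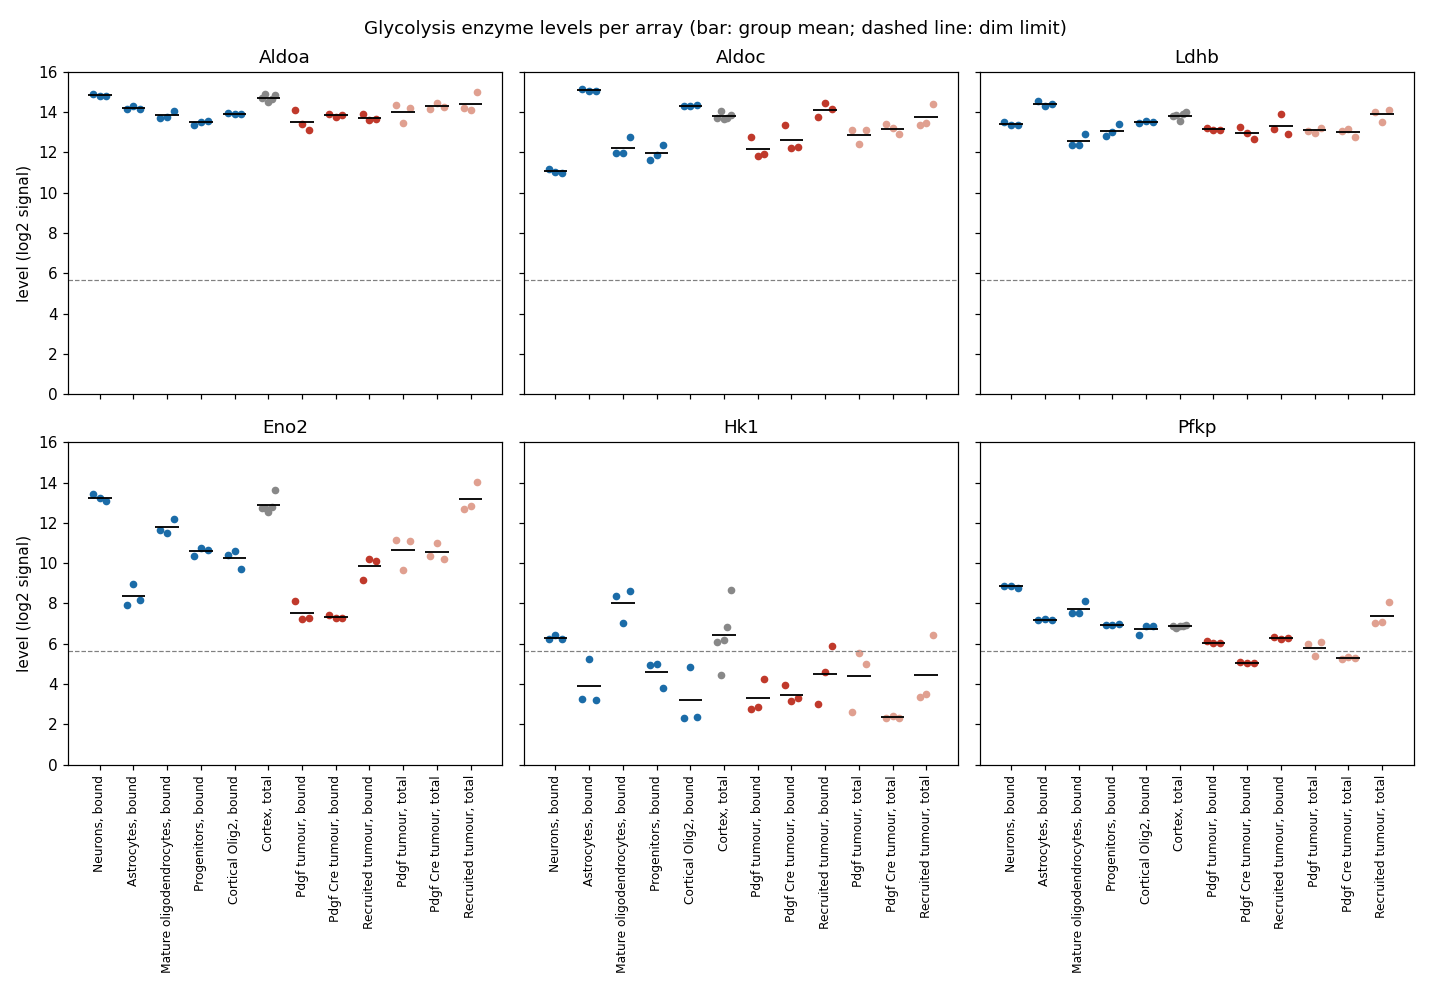
Level of each measured member on every array (log2 signal, y axis) by group (x axis); points are arrays, bars group means, the dashed line the dim limit at 5.644, blue bound RNA of cortex, grey cortex total RNA, red bound RNA and pink total RNA of tumours. Aldoc is highest in astrocytes and lowest in neurons, Eno2 is highest in neurons, cortex total RNA and Recruited total RNA and lowest in Olig2 cells of Pdgf and Pdgf Cre tumours, and Aldoa and Ldhb have the smallest ranges.

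Hexokinase 1, the enzyme of the entry step and the form usually named for brain, was measured above the dim limit on every array of neurons and of mature oligodendrocytes only. Its levels were 8.36, 7.02 and 8.63 in mature oligodendrocytes and 6.24, 6.43 and 6.25 in neurons. In cortex total RNA they were 6.07, 4.47, 6.16, 6.84 and 8.64, a spread that reached from below the neurons to the highest array of all. Hk1 was dim on every array of astrocytes, progenitors, cortical Olig2 cells, Pdgf and Pdgf Cre bound RNA, and Pdgf and Pdgf Cre total RNA, and on all but 1 array each of Recruited bound RNA (5.90) and Recruited total RNA (6.45).

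In these dim groups only a bound on the fold can be given, from the brighter group's mean over the limit of detection in the dim group. Hk1 was at least 5.13-fold lower in astrocytes than in mature oligodendrocytes (adjusted p = 0.000226, limma) and at least 5.13-fold lower in progenitors than in mature oligodendrocytes (adjusted p = 0.00196). It was at least 1.58-fold lower in astrocytes than in neurons (adjusted p = 0.02). Mature oligodendrocytes and neurons differed by 1.70 ± 0.92 (SE) in the direction of the oligodendrocytes, which did not pass (adjusted p = 0.0993, 95% interval of neurons minus mature oligodendrocytes -3.58 to 0.18). It passed with the deposited values at a common median (neurons minus mature oligodendrocytes -2.01, adjusted p = 0.0426) and with only the groups compared in the fit (adjusted p = 0.0196). Against cortex total RNA Hk1 was at least 1.73-fold lower in astrocytes, progenitors and cortical Olig2 cells, and its arrays overlapped the cortex arrays in each of these comparisons. In mature oligodendrocytes it was 1.57 ± 0.82 above cortex, with overlap, and did not pass (adjusted p = 0.0856). That difference passed on the deposited scale (1.78, adjusted p = 0.0422), with a common median (2.26, adjusted p = 0.0111) and without the fifth cortex array (2.12, adjusted p = 0.0185). The call in progenitors was lost when any progenitor array or cortex array 3, 4 or 5 was left out (adjusted p from 0.0505 to 0.169), and the call between astrocytes and neurons without the first or the third astrocyte array (adjusted p = 0.0753 and 0.0764).

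Pfkp, the platelet form of phosphofructokinase and the form common in brain, was highest in neurons. Its level there was 8.89, 8.86 and 8.79, against 6.80 to 6.93 in cortex total RNA, a rise of 1.98 ± 0.17 (3.95-fold, adjusted p = 2.81e-11). Mature oligodendrocytes came next with 7.53, 7.53 and 8.12, then astrocytes with 7.17, 7.22 and 7.17 and progenitors with 6.91, 6.94 and 6.97. No neuron array overlapped an array of another cortical population. The deposited Pfkp values were identical on all 3 astrocyte arrays (6.79), on the first 4 cortex arrays (6.85) and on the first 2 neuron arrays (9.495). The part of the authors' processing in these small spreads, and so in the p-values, was not tested. Neurons stood 1.12 ± 0.19 above mature oligodendrocytes, 1.66 ± 0.19 above astrocytes (adjusted p = 4.35e-09) and 1.90 ± 0.19 above progenitors, each a rise in neurons. Mature oligodendrocytes stood 0.87 ± 0.17 above cortex with no overlap of arrays, which was under 2-fold (adjusted p = 3.72e-05). That difference passed on the deposited scale (1.04, adjusted p = 1.19e-06) and with the deposited values at a common median (1.52, adjusted p = 1.33e-09). The order below mature oligodendrocytes was less clear, since the arrays of progenitors and cortex total RNA overlapped, as did those of cortex total RNA and cortical Olig2 cells.

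Of the other phosphofructokinase genes, Pfkl had the same order of means as Pfkp over these 4 populations and Pfkm did not. Pfkm, the muscle form, averaged 13.02 ± 0.09 (SD) in astrocytes, 12.83 ± 0.12 in neurons, 11.89 ± 0.31 in cortex total RNA and 10.82 ± 0.24 in progenitors. Pfkl, the liver form, averaged 10.82 ± 0.11 in neurons, 10.40 ± 0.40 in mature oligodendrocytes, 10.04 ± 0.20 in astrocytes and 9.42 ± 0.08 in progenitors. In cortex total RNA it was 10.64 ± 0.30, while Pfkp in cortex lay at the level of progenitors. Pfkm was 2.00 ± 0.31 higher in neurons than in progenitors (adjusted p = 1.28e-06), in the same direction as Pfkp. These genes were set beside Pfkp after their probe sets were found on the array. Within arrays, Pfkp minus Pfkl was 1.80 ± 0.17 higher in neurons than in cortex (adjusted p = 4.09e-10). Pfkp minus Pfkm was 1.05 ± 0.21 higher (adjusted p = 0.000127), and 0.65 on the deposited scale, under 2-fold. It was lower in astrocytes than in neurons (-1.85 ± 0.24, adjusted p = 5.18e-08). Neurons passed for neither difference against mature oligodendrocytes (0.70 and 0.05) or progenitors (0.51 and -0.10).

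The aldolases parted across the cortical populations, and most of the movement was in Aldoc. Aldoc was 15.17, 15.07 and 15.07 in astrocytes and 11.15, 11.03 and 10.99 in neurons. In the oligodendrocyte lineage it was 11.97, 11.96 and 12.76 in mature oligodendrocytes, 11.60, 11.87 and 12.38 in progenitors, and 14.28, 14.30 and 14.35 in cortical Olig2 cells. Cortex total RNA had 13.70, 14.04, 13.67, 13.69 and 13.88. As deposited, the 3 cortical Olig2 arrays shared 1 value of Aldoc, 14.18. No astrocyte array overlapped any other group and no neuron array overlapped any other group, while mature oligodendrocytes and progenitors overlapped each other. Astrocytes stood 4.05 ± 0.29 above neurons (a 16.5-fold difference, adjusted p = 2.72e-13) and 1.31 ± 0.26 above cortex (2.48-fold, adjusted p = 4.73e-05), and in neurons it fell by 2.74 against cortex (± 0.26, 6.66-fold, adjusted p = 3.77e-10).

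Aldoa spanned a smaller range than Aldoc. Its levels were 14.91, 14.80 and 14.80 in neurons, 14.16, 14.30 and 14.16 in astrocytes, 13.72, 13.76 and 14.07 in mature oligodendrocytes and 13.37, 13.52 and 13.57 in progenitors, with 14.49 to 14.89 in cortex. It was 1.35 ± 0.21 higher in neurons than in progenitors (2.54-fold, adjusted p = 1.92e-06) and fell by 1.23 in progenitors against cortex (± 0.19, adjusted p = 1.35e-06). Those were the only 2 of the 27 comparisons in which Aldoa passed on this scale, against 14 for Aldoc, and both involve progenitors, whose arrays stood apart in RNA quality. The actin control probe sets differed by 6.51 ± 0.43 (SD) between the 3′ and 5′ ends of the transcript in progenitors and by 2.62 to 4.53 in the means of the other groups, and the part of RNA quality in any progenitor value was not tested. The difference of 0.99 ± 0.21 between neurons and mature oligodendrocytes was just under the 2-fold limit, and it passed on the deposited scale (1.42), with a common median (1.07) and without the second or the third neuron array (1.00 each) or the third mature oligodendrocyte array (1.10). On the deposited scale Aldoa also passed for neurons against cortex (1.01, adjusted p = 0.000115), astrocytes against progenitors (1.56, from 0.72) and progenitors against mature oligodendrocytes (-1.05, from -0.36), so how far it moved between cell types depended on the scale.

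The within-array difference Aldoa minus Aldoc removes any scale factor common to an array, and its change between groups can be tested in the same limma fit. Relative to cortex total RNA it was 2.85 ± 0.20 higher in neurons (adjusted p = 2.37e-13), lower in astrocytes (-1.82 ± 0.20, adjusted p = 1.22e-09) and lower in cortical Olig2 cells (-1.30 ± 0.20, adjusted p = 7.3e-07). Between astrocytes and neurons it changed by -4.68 ± 0.22, a 25.6-fold shift toward Aldoc (adjusted p = 7.55e-18). In mature oligodendrocytes (0.70 ± 0.20) and progenitors (0.61 ± 0.20) the change from cortex was under 2-fold.

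**Figure D2:**
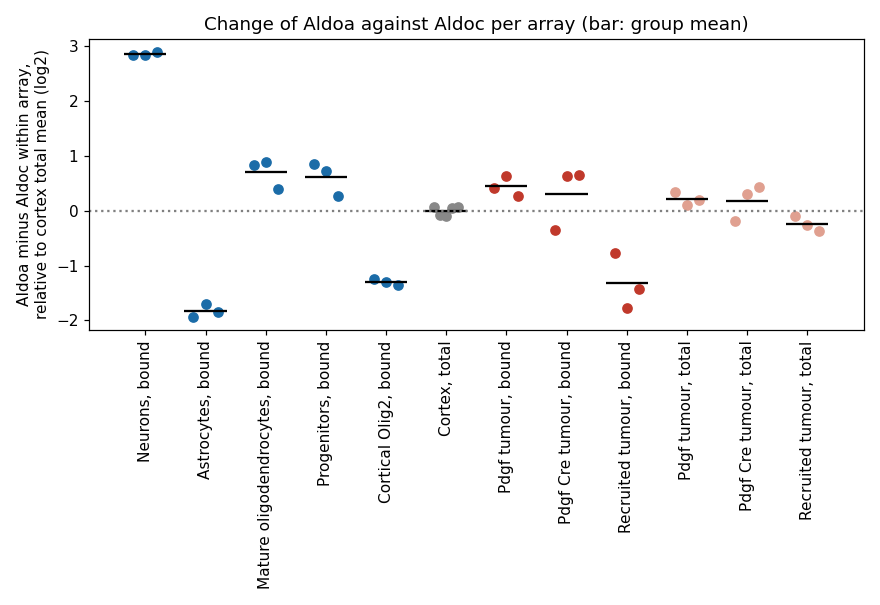
Aldoa minus Aldoc on each array, relative to the cortex total mean (log2, y axis), by group (x axis); points are arrays, bars group means and the dotted line cortex total RNA, with colours as in the plot of levels. Neurons lie 2.85 above cortex, while astrocytes, cortical Olig2 cells and Recruited bound RNA lie below it, with no overlap with the cortex arrays.

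Eno2, gamma enolase, had the widest range of the 6. Its levels were 13.44, 13.21 and 13.10 in neurons and 7.90, 8.99 and 8.18 in astrocytes. The oligodendrocyte lineage lay between, with 11.63, 11.51 and 12.18 in mature oligodendrocytes, 10.36, 10.77 and 10.67 in progenitors and 10.40, 10.58 and 9.72 in cortical Olig2 cells. Cortex total RNA had 12.72, 12.72, 12.53, 12.80 and 13.61. Neuron and cortex arrays overlapped, and the difference between them was 0.37 and did not pass (on the deposited scale it was 1.41 and passed, adjusted p = 0.00094). In astrocytes it fell by 4.90 against neurons (± 0.39, 29.8-fold, adjusted p = 2.04e-12) and by 4.52 against cortex (± 0.35, 23.0-fold, adjusted p = 8.4e-13).

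The difference of Eno2 from cortex was -1.10 ± 0.35 in mature oligodendrocytes (adjusted p = 0.00539), -2.27 ± 0.35 in progenitors (adjusted p = 1.21e-06) and -2.64 ± 0.35 in cortical Olig2 cells (adjusted p = 7.05e-08). The value for mature oligodendrocytes was -0.54 on the deposited scale and no longer passed (adjusted p = 0.173), nor did it without the second mature oligodendrocyte array (-0.97) or the fifth cortex array (-0.92). Progenitors were lower than mature oligodendrocytes (-1.17 ± 0.39, adjusted p = 0.0103), and without the third mature oligodendrocyte array that difference was -0.97 with an adjusted p of 0.0598. Between these last 2 populations the neuron markers had a median difference of -0.78, with 2 of 13 lower and 0 higher in progenitors (over all genes 38.7% passed), although their sums were close, 14.79 to 14.85 in mature oligodendrocytes and 14.90 to 15.08 in progenitors. The sums were 10.99 to 12.59 in astrocytes and 13.03 to 13.71 in cortical Olig2 cells. The part of neuronal RNA in the Eno2 values was not tested.

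Ldhb, the heart form of lactate dehydrogenase, was highest in astrocytes, at 14.55, 14.28 and 14.41, and lowest in mature oligodendrocytes, at 12.39, 12.35 and 12.94. Neurons had 13.52, 13.37 and 13.36 and cortex total RNA 13.56 to 14.00. The astrocyte arrays overlapped no other group. Astrocytes stood 1.85 ± 0.20 above mature oligodendrocytes (3.62-fold, adjusted p = 2.12e-09) and 1.33 ± 0.20 above progenitors (2.51-fold, adjusted p = 1.06e-06). Against neurons the difference was 1.00 ± 0.20 (1.99-fold, adjusted p = 6.05e-05), just short of the 2-fold limit, and it passed without the first neuron array (1.05) or without the second astrocyte array (1.06). Ldhb fell in mature oligodendrocytes against cortex, by a difference of -1.27 ± 0.18 (adjusted p = 3.16e-07). That was under 2-fold on the deposited scale (-0.74), and with a common median it was -0.26 (adjusted p = 0.248). In astrocytes against cortex it was 0.59 ± 0.18 higher, under 2-fold, and passed on the deposited scale (1.26) and with a common median (1.92). How Ldhb stood to cortex therefore depended on the scale.

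Counted over the 6 measured members, 2 passed between neurons and cortex (1 higher, 1 lower), where 28.2% of all tested genes passed, 3 in astrocytes (background 61%), 3 in mature oligodendrocytes (52.9%), 4 in progenitors (48.2%) and 2 in cortical Olig2 cells (56.1%). Between populations 4 passed for astrocytes against neurons (56.8%), 4 for astrocytes against mature oligodendrocytes (53.9%), 3 for astrocytes against progenitors (51.3%), 3 for neurons against mature oligodendrocytes (50.9%), 3 for neurons against progenitors (50%) and 2 for progenitors against mature oligodendrocytes (38.7%). These shares are not far from the backgrounds, so the number of members that passed is not a result about the family. The comparisons against cortex share its 5 arrays.

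In the tumours, Olig2 cells carried less Aldoc and Eno2 RNA than cortical Olig2 cells in the Pdgf and Pdgf Cre models, and neither gene passed in the Recruited model. Aldoc was 12.75, 11.84 and 11.92 in Pdgf tumours, 13.34, 12.23 and 12.28 in Pdgf Cre tumours and 13.76, 14.44 and 14.18 in Recruited tumours, against 14.28 to 14.35 in cortex. Pdgf and Pdgf Cre arrays all lay below the cortical Olig2 arrays, and Recruited arrays straddled them. The difference was -2.14 ± 0.29 in Pdgf (4.41-fold lower, adjusted p = 4.07e-07), -1.70 ± 0.29 in Pdgf Cre (3.24-fold lower, adjusted p = 1.35e-05) and -0.19 ± 0.29 in Recruited tumours.

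Eno2 was 8.13, 7.21 and 7.25 in Pdgf, 7.41, 7.29 and 7.29 in Pdgf Cre and 9.19, 10.22 and 10.11 in Recruited tumour Olig2 cells, against 9.72 to 10.58 in cortical Olig2 cells. The first 2 models lay below every cortical array and Recruited overlapped them. The differences were -2.70 ± 0.39 (6.50-fold lower, adjusted p = 8.9e-07), -2.90 ± 0.39 (7.46-fold lower, adjusted p = 2.27e-07) and -0.39 ± 0.39. Pfkp was 5.08, 5.04 and 5.02 in Pdgf Cre, dim on every array and at least 2.14-fold lower than in cortical Olig2 cells (adjusted p = 7.34e-09); the differences of -0.68 in Pdgf and -0.46 in Recruited tumours were under 2-fold.

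Aldoa and Ldhb did not pass in any model against cortical Olig2 cells. Aldoa differed by -0.40 in Pdgf, -0.08 in Pdgf Cre and -0.21 in Recruited tumours, each with an SE of 0.21, and Ldhb by -0.34, -0.54 and -0.17, each with an SE of 0.20. Hk1 was dim in all 4 groups apart from 1 Recruited array. The within-array difference Aldoa minus Aldoc rose by 1.75 ± 0.22 in Pdgf (adjusted p = 8.45e-08) and 1.61 ± 0.22 in Pdgf Cre tumours (adjusted p = 2.92e-07), and in Recruited tumours it differed by -0.02 ± 0.22. Pfkp minus Pfkl fell only in Pdgf Cre tumours (-1.91 ± 0.19, adjusted p = 1.3e-09), with -0.15 in Pdgf and 0.46 in Recruited tumours. Pfkp minus Pfkm fell in Pdgf Cre (-1.10 ± 0.24, adjusted p = 0.000243) and Recruited tumours (-1.53 ± 0.24, adjusted p = 4.62e-06), with 0.17 in Pdgf. Pfkp was dim in Pdgf Cre cells, and without the first Pdgf Cre array the Pfkp minus Pfkm difference there was -0.95.

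**Figure D3:**
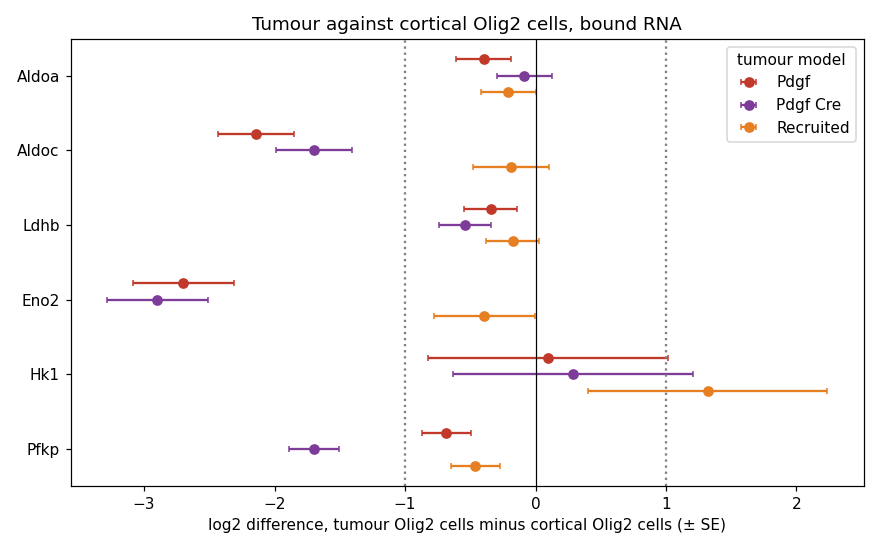
Log2 difference between tumour and cortical Olig2 cells in bound RNA (x axis, ± SE) for each measured member (y axis), by tumour model; dotted lines mark a 2-fold difference. Aldoc and Eno2 lie beyond 2-fold lower in Pdgf and Pdgf Cre but not in Recruited tumours, and Pfkp only in Pdgf Cre tumours.

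The differences between the models were tested directly. Recruited Olig2 cells stood above Pdgf cells by 1.95 ± 0.29 in Aldoc (3.88-fold, adjusted p = 2.3e-06) and 2.31 ± 0.39 in Eno2 (4.95-fold, adjusted p = 1.25e-05). Against Pdgf Cre cells they stood higher by 1.51 ± 0.29 in Aldoc (adjusted p = 6.67e-05), by 2.51 ± 0.39 in Eno2 (adjusted p = 2.64e-06) and by at least 1.55-fold in Pfkp (adjusted p = 2.09e-06). Between Pdgf Cre and Pdgf only Pfkp passed, at least 1.33-fold lower in Pdgf Cre (adjusted p = 7.47e-05), and without the first Pdgf array its difference of -0.99 was no longer 2-fold.

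Summed marker levels of other cell types also differed between these groups of Olig2 cells. The 13 astrocyte markers summed to 15.38 to 15.79 in Recruited Olig2 cells and 14.79 to 14.91 in cortical Olig2 cells, against 12.44 to 12.95 in Pdgf and 12.57 to 13.08 in Pdgf Cre cells, with 1, 2, 7 and 6 of the markers dim in these groups. The 12 mature oligodendrocyte markers lay at 15.80 to 17.37 in Recruited and 17.08 to 17.23 in cortical Olig2 cells, against 12.28 to 12.73 in Pdgf and 12.07 to 13.37 in Pdgf Cre cells. The 13 neuron markers lay at 12.11 to 12.62 in Recruited, 13.03 to 13.71 in cortical Olig2, 11.56 to 11.82 in Pdgf and 10.77 to 11.39 in Pdgf Cre cells. Marker by marker, 8 of the 13 were lower and 0 higher in Recruited than in cortical Olig2 cells (median -1.46, background 27.5%). Eno2 differed there by -0.39. Against Pdgf cells 4 were higher and 1 lower in Recruited cells (median 0.365, background 25.8%), where Eno2 was 2.31 higher. Progenitor markers were close in the 4 groups, between 15.72 and 16.09. The part of these other cells in the values of Aldoc and Eno2 was not tested.

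Across the 12 group means, Aldoc correlated with the summed astrocyte markers at r = 0.84 and Eno2 with the summed neuron markers at r = 0.96, and at 0.76 and 0.95 over the 11 groups that remain without astrocytes or without neurons. These are descriptions over groups that share tissue, cell types and array processing. In mature oligodendrocytes Aldoc averaged 12.23 ± 0.46 (SD) at a summed astrocyte marker level as high as that of cortical Olig2 cells, whose Aldoc was 14.31 ± 0.03. That holds for the sum only: against cortex total RNA most single astrocyte markers were lower in mature oligodendrocytes and in progenitors, as given above, and so was Aldoc, by differences of -1.56 and -1.84. With the deposited values at a common median, the Aldoc difference in mature oligodendrocytes was -0.57 and did not pass (limma adjusted p = 0.0611).

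**Figure D4:**
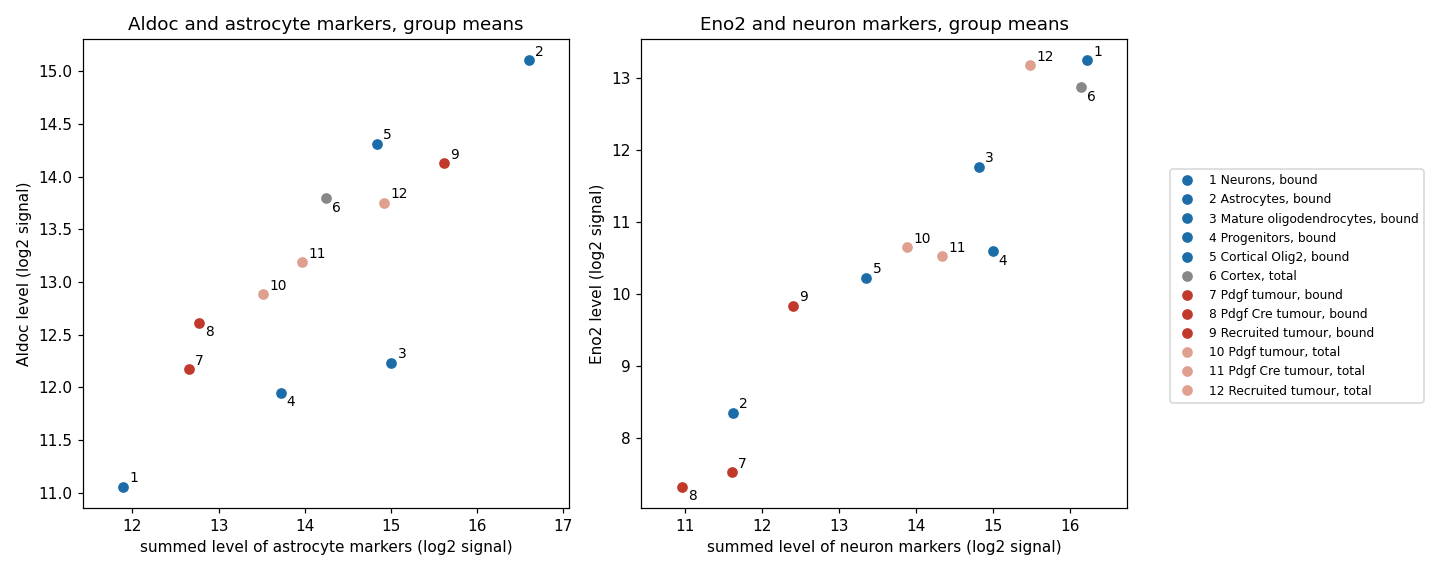
Group mean of Aldoc against the summed level of 13 astrocyte markers (left) and of Eno2 against that of 13 neuron markers (right), all log2 signal; each numbered point is 1 of 12 groups. Aldoc is low for the summed astrocyte marker level in mature oligodendrocytes and progenitors, a sum that the brightest markers carry, and Eno2 follows the neuron markers from Pdgf Cre bound RNA at the bottom to neurons at the top.

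Over the 6 members, 2 passed between the mean of the 3 models' Olig2 cells and cortical Olig2 cells (background 27.9%), both lower: Aldoc by -1.34 ± 0.24 and Eno2 by -1.997 ± 0.32. By model 2 passed in Pdgf (32%), 3 in Pdgf Cre (36.1%) and 0 in Recruited tumours (27.5%), where limma gave 1 member an unadjusted p under 0.05. Between models 1 passed for Pdgf Cre against Pdgf (16.6%), 2 for Recruited against Pdgf (25.8%) and 3 for Recruited against Pdgf Cre (34.5%). The 3 models are compared with the same cortical arrays.

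Tumour Olig2 cells, averaged over the 3 models, were also set against cortical progenitors, where 36.9% of all tested genes passed. Of 10 progenitor markers 3 were lower and 0 higher in the tumour cells (median 0.22). Of 12 mature oligodendrocyte markers 10 were lower and 0 higher (median -2.23). Of the 6 members 3 passed. Eno2 was lower by a difference of -2.37 ± 0.32 (adjusted p = 1.77e-07) and Pfkp by -1.15 ± 0.15 (adjusted p = 1.85e-07), with no overlap of arrays. Aldoc was higher by 1.02 ± 0.24 (adjusted p = 0.000474), with overlap, and fell under 2-fold when any of 5 arrays was left out, with a lowest value of 0.84. The models differed, and they were not tested singly against progenitors. In Pdgf, Pdgf Cre and Recruited cells Aldoc averaged 12.17, 12.61 and 14.13, against 11.95 in progenitors. Pfkp averaged 6.06, 5.04 (dim) and 6.28, against 6.94, and Eno2 7.53, 7.33 and 9.84, against 10.60. The 3′ to 5′ difference of the actin control, 6.51 in progenitors, was 2.995 to 3.31 in tumour bound RNA.

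Bound RNA of tumour Olig2 cells was compared with total RNA of the same tumours to ask which isoforms those cells carry above or below their tissue. Eno2 was lower in bound RNA in every model. Total RNA had 11.17, 9.67 and 11.12 in Pdgf, 10.36, 11.02 and 10.22 in Pdgf Cre and 12.70, 12.83 and 14.01 in Recruited tumours, each array above all bound arrays of its model. The differences were -3.12 ± 0.39, -3.20 ± 0.39 and -3.34 ± 0.39 (8.69-fold, 9.19-fold and 10.1-fold lower, adjusted p = 6.95e-08, 3.72e-08 and 1.34e-08). The fit behind these p-values did not pair bound and total arrays of the same number. Neuron markers moved alike, at 13.37 to 14.18, 14.26 to 14.66 and 15.01 to 16.46 in total RNA against at most 12.62 in bound RNA.

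Of the 6 members, 1 passed in Pdgf (background 32.2%), 1 in Pdgf Cre (38%) and 2 in Recruited tumours (44.3%). The second in Recruited tumours was Pfkp, lower in bound RNA by a difference of -1.12 ± 0.19 (adjusted p = 6.98e-06). Total RNA had 7.02, 7.10 and 8.08, and the difference was -0.78 without the array at 8.08 and -0.67 with the deposited values at a common median, in both cases under 2-fold. With same-numbered bound and total arrays fitted as a pair block, the difference kept its size and its adjusted p was 0.0697. In the same paired fit Hk1 passed in Pdgf Cre tumours (1.12, adjusted p = 0.0216), although it was dim on all 6 arrays. Aldoa minus Aldoc fell by 1.08 in Recruited bound against total RNA (± 0.22, adjusted p = 8.84e-05), and without the second Recruited bound array the difference was -0.85.

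Whole tumours were set against whole cortex in total RNA. Aldoc, Aldoa and Ldhb did not pass in any model, although with the deposited values shifted to a common median all 3 were lower in the mean of the models (-1.39, -1.40 and -1.37). Eno2 fell in Pdgf (-2.22 ± 0.35, adjusted p = 1.58e-06) and Pdgf Cre tumours (-2.34 ± 0.35, adjusted p = 7.47e-07), where no array overlapped cortex, and not in Recruited tumours, whose arrays overlapped cortex. Neuron markers were lower than in cortex for 13 of 13 genes in both Pdgf and Pdgf Cre total RNA (medians -4.32 and -3.26) and for 8 of 13 in Recruited total RNA (median -1.56), and their part in the Eno2 values was not tested. Pfkp fell in Pdgf tumours by a difference of -1.06 ± 0.17 (adjusted p = 2.26e-06, and -0.28 on the deposited scale, adjusted p = 0.121) and was at least 2.32-fold lower in Pdgf Cre tumours (adjusted p = 1.94e-09). In Recruited tumours Pfkp went the other way, 0.54 ± 0.17 above cortex with no overlap of arrays, which was under 2-fold (adjusted p = 0.0053). On the deposited scale that difference was 1.12 and passed (adjusted p = 4.42e-07). Hk1 was at least 1.73-fold lower than in cortex in each model (adjusted p = 0.0259, 6.36e-05 and 0.0292), but on the deposited scale it did not pass in Pdgf (adjusted p = 0.17) or Recruited tumours (adjusted p = 0.25). In Pdgf tumours, Hk1 did not pass without the first tumour array or the fifth cortex array (adjusted p = 0.247 and 0.0913), and Pfkp was under 2-fold without the second tumour array (-0.84).

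As counts, 3 of 6 passed in Pdgf (background 50.5%), 3 in Pdgf Cre (47.9%), 1 in Recruited tumours (50.2%) and 2 for the mean of the models (47.3%), all lower. The single call in Recruited tumours, Hk1, was lost when either of cortex arrays 4 and 5 or Recruited arrays 1 and 2 was left out. The 11 measured markers of microglia and macrophages summed to 10.46 to 11.42 in cortex and were higher in tumour total RNA, at 15.23 to 15.36 in Pdgf, 14.64 to 15.56 in Pdgf Cre and 12.81 to 15.77 in Recruited tumours, and their part in these values was not tested. The change from total to bound RNA was also compared between tumours and cortical Olig2 cells, where 1 of 6 members passed (background 43.8%): Hk1, by 3.28 ± 0.98 (adjusted p = 0.00445). Hk1 was above the dim limit in cortex total RNA by its mean and on 4 of 5 arrays, and dim in nearly all other arrays of this comparison.

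The rest of the pathway gives the setting for these isoforms. Between astrocytes and neurons 56.8% of all tested genes passed, 27.6% higher and 29.3% lower in astrocytes, and the counts below are to be read against these shares. Of 8 tested other glycolysis enzymes 1 was higher in astrocytes and 2 lower, with a median difference of -0.45 (0.00 over all tested genes). Bpgm, which makes 2,3-bisphosphoglycerate, was higher by 1.27 ± 0.35, and Pgam2 and Hkdc1 were lower at least 2.39-fold and 8.65-fold. Of 6 glucose and lactate transporters 3 were higher and 2 lower (median 0.45). Slc2a1 (GLUT1) was higher by 2.80 ± 0.68 and Slc16a1 (the monocarboxylate transporter MCT1) at least 3.56-fold, while Slc2a3 (the neuronal glucose transporter GLUT3) was lower by a difference of -4.78 ± 0.21 and Slc16a7 (MCT2) at least 5.84-fold lower.

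Of 10 enzymes of glycogen and of the pentose phosphate pathway, 7 were higher in astrocytes than in neurons and 0 lower, with a median difference of 1.99. Glycogen is stored in astrocytes in brain. Pygm and Pygb, the muscle and brain glycogen phosphorylases, were higher at least 8.31-fold and by 3.40 ± 0.29, Gys1 (glycogen synthase) at least 1.97-fold and Pygl at least 2.79-fold. Of 9 genes of pyruvate entry into mitochondria 3 were higher and 2 lower (median -0.29): Pdk4, a kinase that shuts pyruvate dehydrogenase, was at least 33.3-fold higher in astrocytes, Pdk2 was higher by 2.30 ± 0.57, and Pdk3 and Pdk1 were lower by differences of -1.61 ± 0.23 and -1.04 ± 0.25. Of 4 regulators 2 were higher and 1 lower, led by Pfkfb4, at least 6.60-fold higher, and of 15 hypoxia response genes 6 were higher and 2 lower, among them Hif1a, at least 14.3-fold higher.

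Between mature oligodendrocytes and cortex 52.9% of all tested genes passed, 25.2% higher and 27.7% lower. Of 6 transporters 3 were higher and 1 lower (median 0.77, against -0.04 over all tested genes), with Slc16a1 at least 16-fold higher. Of 8 other glycolysis enzymes 1 was higher, Bpgm by 3.66 ± 0.31, and 3 were lower, among them the triose phosphate isomerase Tpi1 with -1.16 ± 0.16. Of 10 glycogen and pentose phosphate enzymes 3 were higher and 4 lower: the pentose phosphate enzymes Taldo1 and Tkt were higher by 2.82 ± 0.17 and 1.62 ± 0.19. In progenitors against mature oligodendrocytes Slc16a1 was lower by a difference of -3.87 ± 0.17 and Taldo1 by -2.04 ± 0.19, while Fbp1, which runs the phosphofructokinase step backwards, was at least 7.12-fold higher.

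Between tumour Olig2 cells, averaged over models, and cortical Olig2 cells 27.9% of all tested genes passed, 13.5% higher and 14.4% lower. Of 8 other glycolysis enzymes 0 were higher and 1 lower, Hkdc1, which was dim in both groups, with a list median of -0.06 (0.03 over all tested genes). Of 4 regulators 0 passed with limma, and 2 had an unadjusted p under 0.05. Of 6 transporters 1 was higher, Slc16a7 by 1.71 ± 0.31 (median 0.61). Of 9 genes of pyruvate entry 2 were lower (median -0.33), Pdk2 at least 5.66-fold and Pdk4 at least 1.70-fold. Of 10 glycogen and pentose phosphate enzymes 1 was higher and 2 lower (median 0.15), Taldo1 with -1.41 ± 0.15.

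Between Recruited and Pdgf cells 25.8% of all tested genes passed, 12.8% higher and 13% lower in Recruited cells. Of 9 genes of pyruvate entry 2 were higher and 0 lower, and of 6 transporters 2 were higher and 0 lower. Of 10 glycogen and pentose phosphate enzymes 3 were higher and 1 lower. Pdk4, Pygm and Slc2a1, picked from these lists, were higher in Recruited cells. Pdk4 was at least 4.05-fold higher and Pygm at least 1.18-fold, and Slc2a1 was higher by 2.15 ± 0.68. Of 15 hypoxia response genes 4 were higher and 1 lower in Recruited than in Pdgf cells. Between tumour and cortical Olig2 cells, where 27.9% of all tested genes passed, 5 of these genes were higher and 2 lower in tumour cells. Their median there was 0.08, against 0.03 over all tested genes. Hmox1 was at least 1.41-fold and Adm by 1.54 ± 0.55 higher in tumour cells, and Ndrg1 was lower by a difference of -5.04 ± 0.24. Ndrg1 is also a gene of myelinating oligodendrocytes, whose markers were lower in the Pdgf and Pdgf Cre cells. The part of such cells in the Ndrg1 value was not tested.

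**Figure D5:**
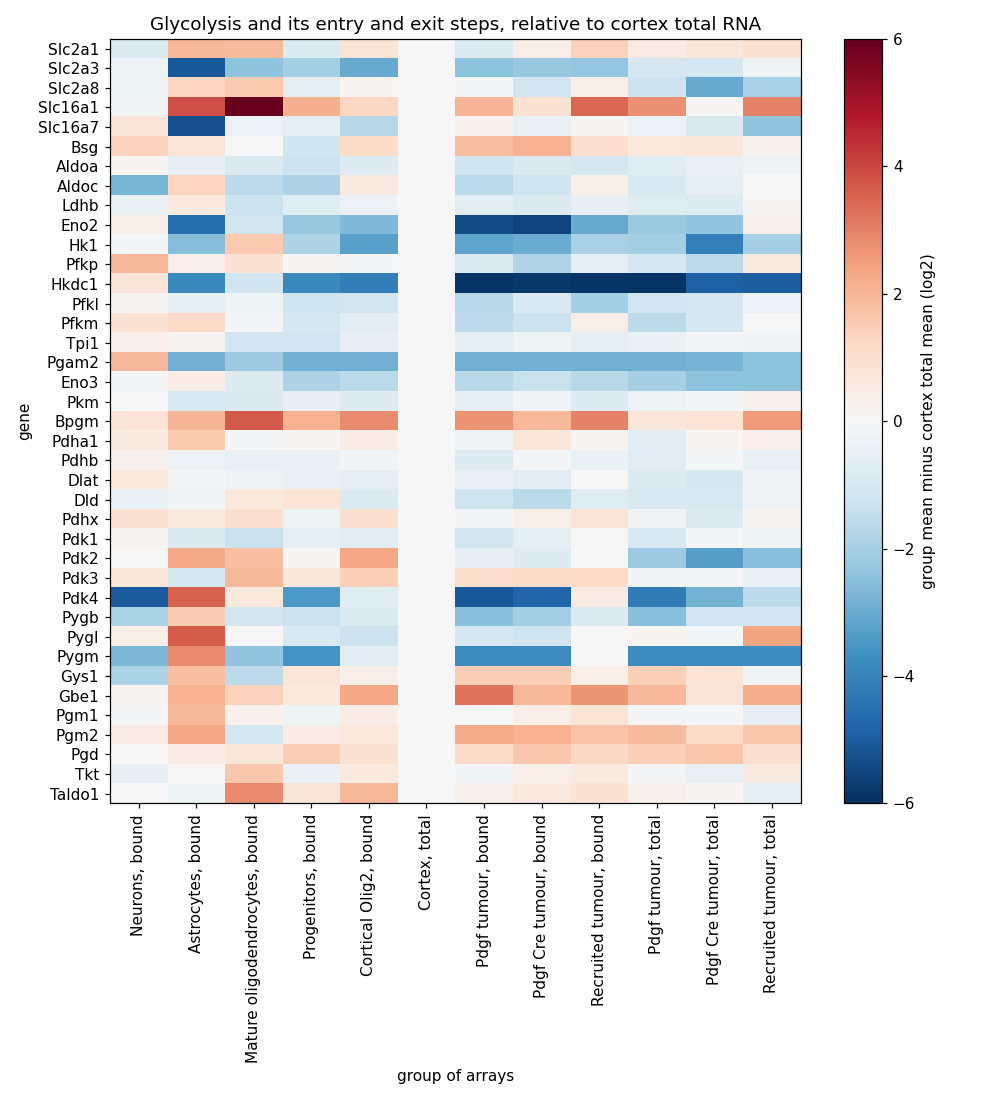
Group mean minus cortex total mean (log2, colour scale from -6 to 6) for the tested genes of 5 lists (y axis: transporters, members, other glycolysis enzymes, pyruvate entry, glycogen and pentose phosphate enzymes) in 12 groups (x axis). Astrocytes are high in Slc16a1, Pdk4 and the glycogen enzymes, mature oligodendrocytes in Slc16a1 and Bpgm, and Eno2 is lowest in Pdgf and Pdgf Cre bound RNA; a colour of a gene that is dim in a group carries no size.

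By Pearson correlation over the 12 group means, the tested genes most like each member were Ntsr2, Mlc1 and Fxyd1 for Aldoc (r = 0.96, 0.94 and 0.94), Stmn2, Cep170b and Nefh for Eno2 (0.98, 0.98 and 0.97), Wdr78, Ier5 and Klf9 for Aldoa (0.92, 0.92 and 0.92), Slc30a10, Fam20c and Fndc5 for Ldhb (0.91, 0.91 and 0.90), Mat2b, Ranbp6 and C1qtnf12 for Pfkp (0.94, 0.94 and 0.92), and Lmbrd1, Plekhm3 and Pdcd7 for Hk1 (0.94, 0.94 and 0.93). Mlc1 encodes a membrane protein of astrocytes, and Stmn2 and Nefh are genes of neurons. Hk1's values below the dim limit enter its correlation.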

How the data were processed

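The data were 38 one-colour Affymetrix mouse arrays hybridized after a 2-cycle amplification, per the labels' protocols. The deposited values are log2 signals made with GCRMA, per the submitters' processing notes, with no version given. Within each of the 12 groups all arrays shared 1 lowest value that differed between groups, so the authors' values appear to have been processed group by group; this leaves the scale between groups uncertain and can narrow the spread within them. The deposited log2 values were therefore quantile normalized over all arrays, with the deposited values as an alternative.

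The array held 16395 probe sets: 15644 with a named gene (1 probe set per gene), 687 without and 64 controls. Of the named genes 15617 matched the RefSeq table by gene identifier. Genes above log2 of 50 in at least 3 arrays were tested (9799, with 5845 removed). Tests used limma 3.58.1 (R 4.3.3) and a single linear model of the 12 groups with 26 residual degrees of freedom, and adjusted by Benjamini-Hochberg over the tested genes. Aldoa minus Aldoc, Pfkp minus Pfkl and Pfkp minus Pfkm were fitted as further rows. A brighter group's mean over the higher of the dim limit and the dim probe's own level gave the folds written as "at least". Marker levels were summed as linear signals. Scripts were tested on simulated data. Array number limits the precision.

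The members and gene lists were chosen with earlier results of these data known. All members were named, and of each other list up to 4 genes that passed with the largest difference. The lists were other glycolysis enzymes, glycolysis regulators, transporters, pyruvate entry, glycogen and pentose phosphate enzymes, hypoxia response, 6 sets of cell type markers and mitosis genes. Of 2 groups not described above, endothelial markers were all dim in cortex and in bound RNA, and mitosis genes summed to 9.23 to 9.87 in cortical Olig2 cells and 10.50 to 13.94 in tumour Olig2 cells. Deviations from the group mean of same-numbered bound and total arrays correlated at 0.626, 0.618 and 0.473 in Pdgf, 0.621, 0.428 and 0.555 in Pdgf Cre and 0.466, 0.266 and 0.488 in Recruited tumours. The main fit left these numbers out, so its p-values for bound against total RNA ignore this pairing. A fit with the numbers as pairs was run as an alternative. Alternatives were the deposited scale, a common median, other filters, a trended robust eBayes, only the groups compared, the pair block and leaving out each array.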

Additional observations from a re-analysis of the deposited data

Results flagged for a closer look

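Among the 5 arrays of cortex total RNA, Eno2 on the fifth array was 13.61, with the others at 12.53 to 12.80; its gap to the next array was 0.753 of the whole range, above the limit of 0.71 for 5 arrays. The same array had the highest Hk1 of the group, 8.64, which did not exceed that limit. The other members and Aldoa minus Aldoc had no array beyond the limit, and chance flags about 1 in 20 groups.

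The change from total to bound RNA differed between tumours and cortical Olig2 cells for Hk1 by 3.28 ± 0.98 (SE, limma adjusted p = 0.00445). In cortex Hk1 averaged 6.44 in total and 3.18 in bound RNA, and in tumours 3.72 and 3.75, so all but the cortex total mean lay below the dim limit.

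The same difference for Aldoa minus Aldoc was 1.07 ± 0.23 (adjusted p = 0.000231). From total to bound RNA the within-array value changed by 0.23 in Pdgf, 0.13 in Pdgf Cre and -1.08 in Recruited tumours, and by -1.30 in cortex. Astrocyte markers were above the total RNA in bound RNA of cortical Olig2 cells (14.79 to 14.91 against 14.21 to 14.34) and of Recruited tumours (15.38 to 15.79 against 14.91 to 14.97), and below it in Pdgf (12.44 to 12.95 against 13.29 to 13.66) and Pdgf Cre tumours (12.57 to 13.08 against 13.75 to 14.28). Their part in this difference was not tested.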

How the results depend on the processing

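The scale between groups was the choice that moved most. The median tested gene shifted by -0.66 to 0.78 (log2) between groups on the deposited scale and by -0.64 to 0.95 with a common median, by over 0.1 in 20 and 24 of 27 comparisons, and the share of higher genes among those that passed moved by over 10 points in 15 of 27 under each (17.9% to 75.4% and 26.5% to 84.4%). Of 162 member results, 138 kept their direction and side of the threshold on the deposited scale and 128 with a common median. With both scales the number of members that passed became 4 for neurons against cortex (from 2), 5 for neurons against progenitors (from 3), 5 for progenitors against mature oligodendrocytes (from 2), and 2 for Pdgf and for Pdgf Cre bound against total RNA (from 1 each), and Aldoa minus Aldoc in Recruited bound against total RNA became -0.96. On the deposited scale 1 passed in Pdgf total RNA against cortex (from 3). With a common median the counts were 6 for neurons against mature oligodendrocytes (from 3), 6 for Pdgf and 6 for Pdgf Cre total RNA against cortex (from 3 each), 5 for the mean of the models (from 2), 2 for Recruited total RNA (from 1) and 3 for the change from total to bound RNA (from 1). Ldhb in Pdgf Cre bound against total RNA turned from -0.04 to 1.30 with a common median. The comparisons of tumour with cortical Olig2 cells kept every member call on both scales. Over all genes, 2765 passed between neurons and cortex, against 4774 as deposited and 5176 with a common median, and 3157 in Pdgf bound against total RNA, against 5644 with a common median.

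With the pair block over replicate numbers, the members that passed became 2 for Pdgf Cre and 1 for Recruited bound against total RNA. Outside the tumour pairs the arrays share only a number: there the block left 1 for cortical Olig2 cells against cortex, 0 for Recruited against Pdgf bound RNA, 1 for the mean of the models and 0 for Recruited total RNA against cortex, and Aldoa minus Aldoc of Recruited against Pdgf Cre stayed at -1.63 without passing (adjusted p = 0.096). Over all genes the block left 1681 of 2524 for Recruited against Pdgf bound RNA and 3031 of 4916 for Recruited total RNA against cortex. With only the groups compared in the fit, 2 passed for Pdgf Cre bound against total RNA and 0 for Recruited total RNA against cortex. Filters and the trended robust fit changed at most 1 member result.

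Leaving out 1 array gave 1 to 2 members for progenitors against mature oligodendrocytes, for Pdgf bound against total RNA and for Recruited bound against total RNA, and 0 to 1 for Recruited total RNA against cortex and for Pdgf Cre against Pdgf. Aldoa minus Aldoc ranged from -1.36 to -0.85 in Recruited bound against total RNA and from 0.97 to 1.18 for the change from total to bound RNA, where leaving out the first Recruited bound array took it under 2-fold. Signal over background limits Hk1, dim on 26 of 38 arrays, and Pfkp, dim on 7.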
